A study of Homo sapiens with 18 samples.

Results

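LRP8, LRP10, VLDLR, LRP1 and LRP5 of the low-density lipoprotein (LDL) receptor family, their chaperone LRPAP1, the high-density lipoprotein (HDL) receptor SCARB1, and the scavenger receptors SCARA3 and CXCL16 were followed over 6 doses of oxidized LDL (oxLDL). These genes were chosen by name, as receptors for lipoproteins and their partners, and 9 of 10 named genes were among the 13992 listed in the deposited table. LRP6, the other named gene, was not analysed here. The cells were HMC3, an immortalized human line labelled as microglial and as wild type in genotype. Groups of 3 libraries each came from cells given no oxLDL (0 µg/ml) and from cells given 1 µg/ml, 2.5 µg/ml, 10 µg/ml, 50 µg/ml or 100 µg/ml of it for 24 h. All groups were grown in MEM with fetal bovine serum. The labels name a single batch. Nothing states whether the 3 libraries of a group were grown as separate cultures, so each p-value measures only how far these libraries scatter, which could be technical scatter.

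Receptors of the LDL receptor family are cell surface proteins that bind a ligand outside the cell, are gathered into clathrin-coated pits, release their cargo in acid endosomes and mostly return to the surface. LRP1 takes up many ligands, including proteases bound to their inhibitors, while LRP8 and VLDLR also signal as receptors of the secreted protein reelin, and LRP5 serves Wnt ligands as a partner of Frizzled receptors. Modified LDL is instead taken up largely by scavenger receptors, a structurally mixed group to which SCARA3, CXCL16 and SCARB1 belong.

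mRNA levels are given as FPKM, the fragment number scaled by gene length and library total. Read numbers were recovered from the steps of these values, and library depths were about 13919066 to 37382244 reads. The lowest and the highest depth both belonged to libraries at 100 µg/ml. The microglial label was checked on the microglia and macrophage markers CD14, CD68, OLFML3 and LAPTM5. Other markers, among them AIF1, CX3CR1, P2RY12, TMEM119 and CSF1R, were not used here. The summed FPKM of these 4 was 16.5 to 17.3 at 100 µg/ml and 14.3 to 15.1 at 0 µg/ml. CD14 fell to 0.63 ± 0.23 FPKM at 100 µg/ml, against 1.08 ± 0.098 at 0 µg/ml (SD, n = 3 each). It was measured from only 10 to 52 reads per library. Of 15 fibroblast and pericyte markers 11 were listed, with a summed FPKM of 1703 to 1833 at 100 µg/ml and 2039 to 2171 at 0 µg/ml, and 4 of the 10 tested fell while 0 rose. Of 3 tested astrocyte markers 0 changed, and of 3 tested neuron markers TUBB3 fell. The part of these shifts in the results that follow was not tested. In bulk libraries, fewer cells of a kind and less RNA per cell cannot be told apart.

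Of the 9 genes, LRP8 and LRP10 rose with oxLDL, and 7 were not called at any single dose. At 100 µg/ml, 2 of 9 genes were called higher, against 7.94% of the 12127 genes tested, and 0 were called lower, against 7.51%. A call is an adjusted p under 0.05 in limma, Benjamini-Hochberg adjusted over all tested genes. With an unadjusted p under 0.05 there was 1 gene lower, LRPAP1. Of the 9 genes, limma-voom on the recovered reads called LRP8 and LRP10 at this dose but not LRPAP1 (adjusted p = 0.0702). At 50 µg/ml the same 2 genes were called higher (3.78% of all tested genes were), and 0 were called lower (3.69%), with SCARA3 lower at an unadjusted p of 0.0434. At 10 µg/ml limma called 0 of the 9, where 0.0412% of all tested genes were called (0.033% higher and 0.00825% lower), while the unadjusted p of LRP8 and of LRP10 was under 0.05. The doses of 1 and 2.5 µg/ml gave 0 calls by limma, both among the 9 genes and among all tested genes (0%), and 0 of the 9 had an unadjusted p below 0.05. Over all doses together, by the moderated F-test, LRP8 and LRP10 were called, where 15.4% of all genes were. The median log2 fold change of the 9 genes at 100 µg/ml was 0.018, and that of all tested genes was -0.0037. These comparisons share the libraries at 0 µg/ml.

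**Figure D1:**
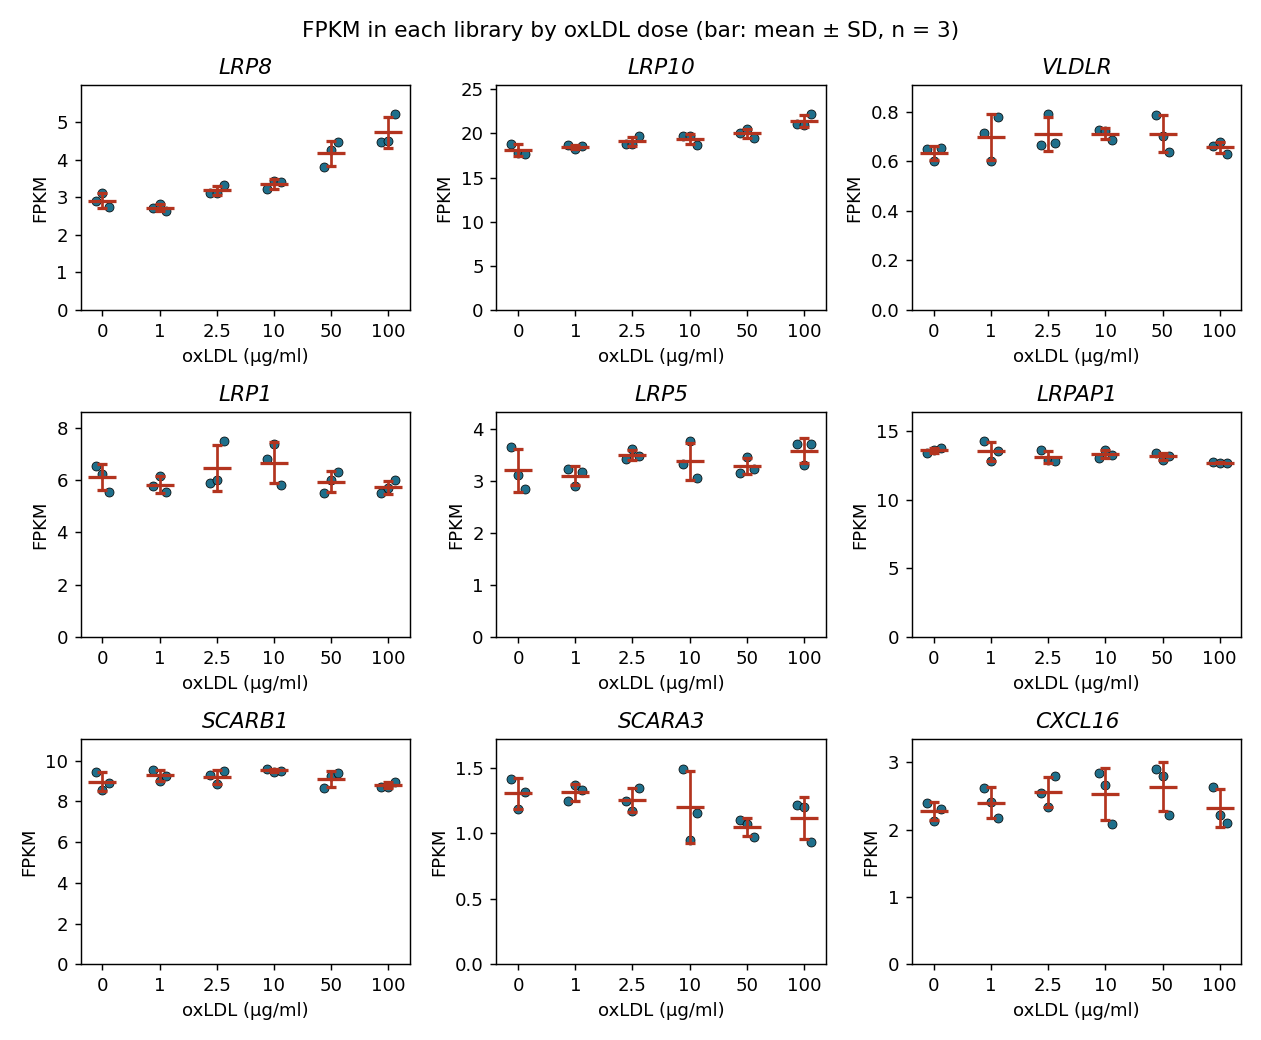
FPKM of each gene (vertical axis, from 0, with its own scale) in each of the 18 libraries by oxLDL dose in µg/ml (horizontal axis). Points are libraries and red bars the mean ± SD of 3 libraries. The means of LRP8 and LRP10 are highest at 100 µg/ml, at 4.73 and 21.4, and the 18 libraries of SCARB1 span 8.56 to 9.60.

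The promoters of LRP8 and LRP10, the genes that rose, are printed for reference, from 250 bases before to 50 bases after the annotated start (RefSeq, GRCh38.p14). That of LRP8 is chr1:53328021-53328320 on the minus strand and that of LRP10 is chr14:22871490-22871789 on the plus strand, both written 5′ to 3′ in the direction of the gene. Capitals mark the GC box, GGGCGG or its reverse complement CCGCCC, a site of Sp1-type factors.
LRP8: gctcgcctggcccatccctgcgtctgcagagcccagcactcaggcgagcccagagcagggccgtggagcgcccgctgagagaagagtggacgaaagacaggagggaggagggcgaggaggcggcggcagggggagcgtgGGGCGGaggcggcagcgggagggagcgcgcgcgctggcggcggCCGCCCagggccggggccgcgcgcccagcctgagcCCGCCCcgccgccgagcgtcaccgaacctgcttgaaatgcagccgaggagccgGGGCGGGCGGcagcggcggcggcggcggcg
LRP10: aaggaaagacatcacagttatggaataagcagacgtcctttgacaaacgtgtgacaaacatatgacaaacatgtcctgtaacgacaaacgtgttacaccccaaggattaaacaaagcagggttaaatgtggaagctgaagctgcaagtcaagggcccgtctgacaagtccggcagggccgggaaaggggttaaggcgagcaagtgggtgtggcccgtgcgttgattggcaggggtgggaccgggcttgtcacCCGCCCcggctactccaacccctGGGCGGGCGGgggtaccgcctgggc
The promoter of LRP8 held 5 GC boxes, at -111, -68, -33, 20 and 24 from the start, and that of LRP10 held 3, at 2, 25 and 29, where 0 is the first transcribed base. The last pair in each overlaps. The GC content was 78.3% in LRP8 and 56.3% in LRP10. A promoter was found for 6 of the 9 genes, and all 6 held a GC box, as did 45.0% of 35116 promoters of this length. The sterol regulatory element core TCACNCCAC, the E-box CACGTG and the AP-1 motif TGANTCA were searched on both strands and matched 0 of the 6, where 1.13%, 7.26% and 7.71% of all promoters matched. The antioxidant response element core TGACNNNGC was matched in VLDLR, at -35, and in 13.3% of all promoters.

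LRP8, a receptor for reelin and for lipoproteins, had the largest change of the 9 genes (chromosome 1, 53242364 to 53328070). At 0 µg/ml its 3 libraries had 2.89, 3.11 and 2.73 FPKM, at 1 µg/ml they had 2.72, 2.83 and 2.63, and at 2.5 µg/ml they had 3.11, 3.12 and 3.33. At 10 µg/ml they had 3.21, 3.45 and 3.40 FPKM, at 50 µg/ml they had 3.81, 4.26 and 4.47, and at 100 µg/ml they had 4.49, 4.50 and 5.21. From 10 µg/ml upward every library lay above all 3 libraries at 0 µg/ml, and the libraries of 50 and of 100 µg/ml lay wholly above those of the dose before. Wholly higher libraries were found in 14.9% of all tested genes at 50 against 0 µg/ml and in 16.5% at 100 against 0 µg/ml. For 50 against 10 µg/ml the share was 9.53%. No such share was taken for 10 against 0 or 100 against 50 µg/ml. LRP8 rose to 4.73 ± 0.42 FPKM at 100 µg/ml, against 2.91 ± 0.19 at 0 µg/ml (SD, n = 3 each), a ratio of means of 1.63 and a log2 fold change of 0.62 (SE 0.066, adjusted p = 7.77e-06 by limma). At 50 µg/ml it was 4.18 ± 0.33 FPKM, with a log2 fold change of 0.46 over 0 µg/ml (adjusted p = 0.000414). Among the 963 genes called higher at 100 µg/ml, whose median log2 fold change was 0.23, LRP8 ranked 77.

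LRP8 rose between 10 and 50 µg/ml. The step from 10 to 50 µg/ml had a log2 fold change of 0.28 (SE 0.066, adjusted p = 0.0315), and LRP8 was the 1 gene of the 9 called in it, where 2.61% of all tested genes were called (1.39% higher and 1.22% lower). This call was lost when replicate 1 or 2 of the 10 µg/ml group was left out (adjusted p = 0.141 and 0.0873), when replicate 2 or 3 of the 50 µg/ml group was (0.103 and 0.126), and when only these 2 doses were fitted (0.116). The step from 50 to 100 µg/ml was 0.16 (95% interval 0.022 to 0.30, adjusted p = 0.502) and was not called, and 0 of the 9 genes were called in it by limma (0.28% of all tested genes, 0.223% higher and 0.0577% lower), with LRP8 and LRP10 under 0.05 unadjusted. LRP8 was measured from 389 to 1296 reads per library. Exons of LRP8 overlap 3 unnamed transcripts on the opposite strand (346, 467 and 249 bases of a gene length of 7704), and the strand setting of the read assignment is not given in the sources used here.

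LRP10, which sorts cargo between the Golgi and endosomes, was the most abundant of the 9 genes and rose by less (chromosome 14, 22871740 to 22881713). At 0 µg/ml its 3 libraries had 18.9, 17.8 and 17.6 FPKM, at 1 µg/ml they had 18.6, 18.2 and 18.5, and at 2.5 µg/ml they had 18.8, 18.8 and 19.7. At 10 µg/ml they had 19.7, 19.7 and 18.7 FPKM, at 50 µg/ml they had 20.01, 20.5 and 19.5, and at 100 µg/ml they had 21.0, 20.9 and 22.2. The means rose at every dose, and the libraries at 50 and 100 µg/ml all lay above those at 0 µg/ml. The same held for 14.9% of all tested genes at 50 µg/ml and for 16.5% at 100 µg/ml. LRP10 reached 21.4 ± 0.69 FPKM at 100 µg/ml, against 18.1 ± 0.67 at 0 µg/ml (SD, n = 3 each), 18.2% more, with a log2 fold change of 0.23 (SE 0.036, adjusted p = 0.000302 by limma). At 50 µg/ml the log2 fold change was 0.14 (adjusted p = 0.0254). The call at 50 µg/ml was lost when replicate 2 or 3 of the 0 µg/ml group was left out (adjusted p = 0.0836 and 0.104), when replicate 1 or 2 of the 50 µg/ml group was (0.0638 and 0.10), and when only these doses were fitted (0.0674). LRP10 was measured from 2110 to 5412 reads per library and no annotated exon of another gene overlaps its exons.

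As a trend on log2(dose + 1), LRP8 gained 0.098 on the log2 scale per unit (SE 0.0092, adjusted p = 3.10e-07) and LRP10 gained 0.031 (SE 0.0044, adjusted p = 3.03e-05). These 2 of the 9 genes had a slope called as rising, where 13% of all tested genes did and 25.6% were called in either direction. SCARA3, a class A scavenger receptor induced by oxidative stress, was the 1 gene of the 9 with a slope called as falling, -0.033 per unit (SE 0.011, adjusted p = 0.0344), where 12.6% of all tested genes had one. The slope of LRPAP1 was -0.011 (95% interval -0.020 to -0.0020, adjusted p = 0.0686) and was called in 2 of 26 other settings, without replicate 2 of the 1 µg/ml group (0.0416) or replicate 3 of the 2.5 µg/ml group (0.0462). At 0 µg/ml SCARA3 had 1.41, 1.18 and 1.31 FPKM, at 50 µg/ml it had 1.10, 1.07 and 0.969, while 100 µg/ml gave 1.21, 1.20 and 0.932. Its libraries at 50 µg/ml lay below all at 0 µg/ml, as in 13.3% of all tested genes, and those at 100 µg/ml overlapped them. The log2 fold change of SCARA3 was -0.16 at 100 µg/ml (95% interval -0.37 to 0.050, adjusted p = 0.324) and -0.22 at 50 µg/ml (adjusted p = 0.211), from 74 to 256 reads per library. Without replicate 3 at 100 µg/ml the value at that dose was -0.077. Its slope lost its call in 7 of 26 other settings, each leaving out 1 library. These were replicates 1 and 3 of the 0 µg/ml group (adjusted p = 0.0711 and 0.0516), replicates 2 and 3 of the 1 µg/ml group (0.0561 and 0.0520), replicates 2 and 3 of the 50 µg/ml group (0.0561 and 0.0719), and replicate 3 of the 100 µg/ml group (0.109).

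**Figure D2:**
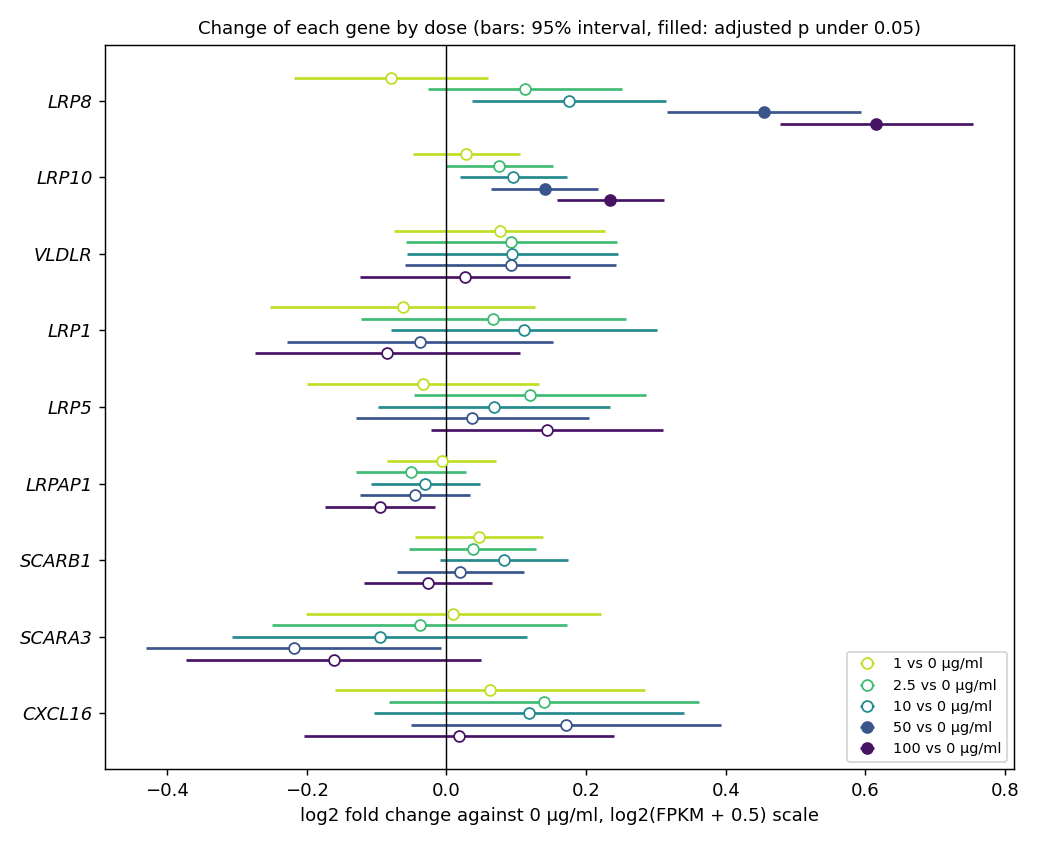
Log2 fold change of each gene against 0 µg/ml (horizontal axis) at 1, 2.5, 10, 50 and 100 µg/ml, drawn from top to bottom within each gene. Points are limma estimates with 95% intervals, and filled points have an adjusted p under 0.05. The 4 filled points are LRP8 at 0.46 and 0.62 and LRP10 at 0.14 and 0.23.

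The other endocytic receptors showed no change that passed the test. LRP1, the large receptor for protease and inhibitor complexes (chromosome 12, 57128483 to 57213361), had 5.49, 5.70 and 5.99 FPKM at 100 µg/ml, against 6.54, 6.24 and 5.55 at 0 µg/ml. Its groups overlapped at every dose, and its log2 fold change at 100 µg/ml was -0.085 (95% interval -0.27 to 0.10, adjusted p = 0.602). The highest LRP1 values were 7.47 FPKM in replicate 3 at 2.5 µg/ml and 7.36 in replicate 2 at 10 µg/ml. The exons of LRP1 share 59 bases with STAT6 and 112 with LRP1-AS, both on the opposite strand. VLDLR, the second reelin receptor and the least abundant of the 9 (chromosome 9, 2621787 to 2660056), had 0.661, 0.677 and 0.632 FPKM at 100 µg/ml, against 0.649, 0.603 and 0.653 at 0 µg/ml. Its libraries at 2.5 and 10 µg/ml all lay above those at 0 µg/ml, with means of 0.712 FPKM at both doses and 0.635 at 0 µg/ml. The share of all tested genes that lay wholly higher at these doses was not taken. The log2 fold changes of 0.093 and 0.094 were not called (adjusted p = 0.994 and 0.641 by limma). At 100 µg/ml the log2 fold change of VLDLR was 0.027 (95% interval -0.12 to 0.18, adjusted p = 0.859). VLDLR rests on 81 to 239 reads per library, and 738 bases of its exons are shared with VLDLR-AS1 on the opposite strand.

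LRP5, the Wnt co-receptor (chromosome 11, 68298412 to 68449275), had 3.72, 3.30 and 3.72 FPKM at 100 µg/ml, against 3.65, 3.12 and 2.85 at 0 µg/ml. The groups overlapped, and the log2 fold change was 0.14 (95% interval -0.022 to 0.31, adjusted p = 0.253). It was 0.074 without replicate 3 and 0.23 without replicate 1 of the 0 µg/ml group. LRP5L, a partial copy of LRP5, was listed at 0.113 to 0.243 FPKM, and reads of the copied part cannot be assigned with certainty.

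LRPAP1, a chaperone that keeps ligands off the receptors while these pass through the endoplasmic reticulum (chromosome 4, 3503612 to 3532422), was slightly lower and did not pass the test. It had 12.7, 12.7 and 12.7 FPKM at 100 µg/ml, against 13.4, 13.6 and 13.8 at 0 µg/ml, and the groups did not overlap, nor did those at 50 and 0 µg/ml. LRPAP1 was the 1 gene of the 9 whose libraries at 100 µg/ml all lay below those at 0 µg/ml, as did 16.9% of all tested genes. At 50 µg/ml 2 of the 9 genes, LRPAP1 and SCARA3, lay wholly below 0 µg/ml, as did 13.3% of all tested genes. Its log2 fold change at 100 µg/ml was -0.095 (95% interval -0.17 to -0.017, adjusted p = 0.098).

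SCARB1, which takes cholesteryl esters from HDL (chromosome 12, 124776856 to 124863864), stayed within a narrow range over the dose series. Its FPKM was 8.71, 8.69 and 8.95 at 100 µg/ml, against 9.45, 8.56 and 8.89 at 0 µg/ml, and the 18 libraries spanned 8.56 to 9.60. The log2 fold change at 100 µg/ml was -0.027 (95% interval -0.12 to 0.065, adjusted p = 0.755), and at 50 µg/ml it was 0.020 (95% interval -0.071 to 0.11). All 3 SCARB1 libraries at 50 µg/ml lay below those at 10 µg/ml, as in 11.7% of all tested genes, but that step was not called (log2 fold change -0.063, adjusted p = 0.518).

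CXCL16, a membrane-bound chemokine that also binds oxLDL (chromosome 17, 4733533 to 4739928), did not pass the test. At 0 µg/ml CXCL16 had 2.39, 2.13 and 2.30 FPKM, at 50 µg/ml it had 2.91, 2.79 and 2.22, while 100 µg/ml gave 2.63, 2.22 and 2.10. The groups overlapped at both doses. Its log2 fold change was 0.17 at 50 µg/ml (95% interval -0.051 to 0.39, adjusted p = 0.37) and 0.018 at 100 µg/ml (95% interval -0.20 to 0.24, adjusted p = 0.944). CXCL16 rests on 70 to 229 reads per library, and 85 bases of its exons are shared with MED11 on the opposite strand.

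Per length, the order of the 9 levels at 0 µg/ml was LRP10, LRPAP1, SCARB1, LRP1, LRP5, LRP8, CXCL16, SCARA3 and VLDLR, with mean FPKM of 18.1, 13.6, 8.97, 6.11, 3.21, 2.91, 2.27, 1.30 and 0.635. The libraries of LRP5 and LRP8 overlapped there, and those of every other pair of neighbours did not. At 100 µg/ml LRP8 stood above LRP5, at 4.73 ± 0.42 against 3.58 ± 0.24 FPKM (SD, n = 3 each), and no neighbours overlapped. The order of the other genes was the same at both doses.

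**Figure D3:**
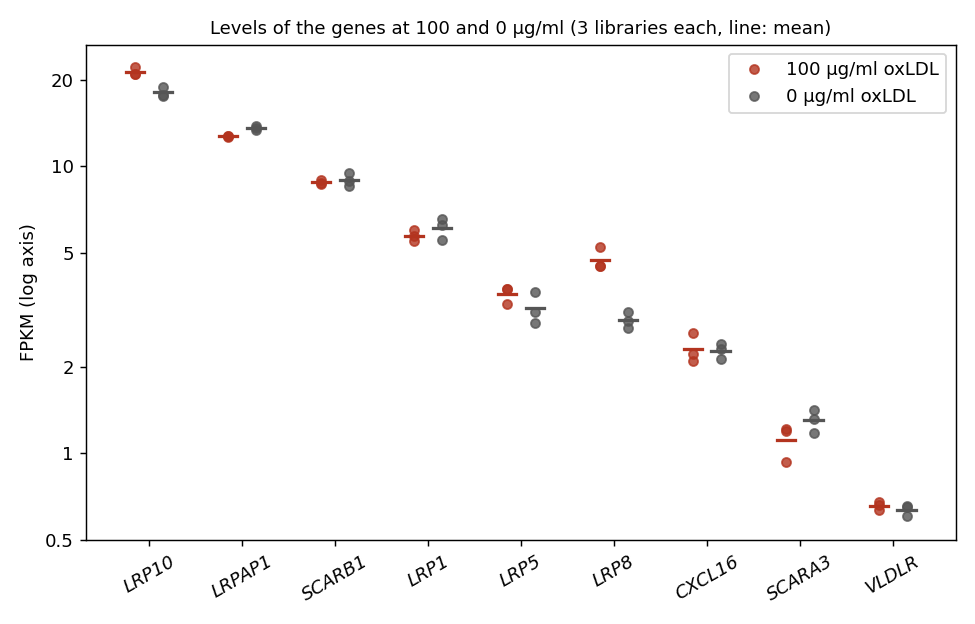
FPKM of the 9 genes on a log axis, at 100 µg/ml (red, left) and 0 µg/ml (grey, right). Points are the 3 libraries of a dose and lines their means. LRP8 at 4.73 stands above LRP5 at 3.58 at 100 µg/ml, and the libraries of both genes overlap at 0 µg/ml.

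The tested genes most like LRP8 over the 18 libraries, by Pearson correlation of log2(FPKM + 0.5), were the taurine transporter SLC6A6 (r = 0.974), the hydroxylase ASPH (0.968) and the deubiquitinase USP10 (0.966). Their log2 fold changes at 100 µg/ml were 0.56, 0.59 and 0.23. Those most like LRP10 were the microtubule protein MAP1B (r = 0.938), the elongation factor ELL (0.912) and the actin-binding protein LIMCH1 (0.911), with log2 fold changes of 0.31, 0.30 and 0.49. The libraries share their dose groups, so these values describe a common order over doses.

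Around these receptors, 83 other tested genes of 7 lists held 14 that rose and 15 that fell at 100 µg/ml, with a median log2 fold change of -0.00083. Called were 34.9% of them, where 15.5% of all tested genes were. The lists were chosen with earlier results of these data known, so the difference between these shares is not a test. Among 6 tested further members of the LDL receptor family 1 rose and 1 fell. The riser was LRP12, a receptor of the family with no settled ligand, at 12.4 ± 0.40 FPKM at 100 µg/ml, against 9.50 ± 0.73 at 0 µg/ml (log2 fold change 0.37, adjusted p = 0.000478). Of 16 chaperones, adaptors and sorting proteins 2 rose and 1 fell. The clathrin adaptor PICALM rose (0.20, adjusted p = 0.000913), as did SHC1, an adaptor that binds the phosphorylated tail of LRP1 (0.18, adjusted p = 0.00936). SNX17, which returns LRP1 and related receptors from endosomes to the surface, fell to 53.8 ± 0.89 FPKM at 100 µg/ml, against 60.2 ± 0.047 at 0 µg/ml (-0.16, adjusted p = 0.00181).

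Of 5 other scavenger receptors that were tested, 1 fell and 0 rose. OLR1, the lectin-like receptor for oxLDL, had 1.06 ± 0.23 FPKM at 100 µg/ml, against 2.93 ± 0.49 at 0 µg/ml (SD, n = 3 each), a log2 fold change of -1.14 (adjusted p = 0.000685), which stands beside values of -0.16 for SCARA3 and 0.018 for CXCL16. CD36 was not analysed here.

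Ligands of LRP1, LRP8 and VLDLR moved both ways, with 4 of 12 up and 2 down. The protease inhibitor SERPINE2 rose to 71.1 ± 10.7 FPKM at 100 µg/ml, against 27.0 ± 2.4 at 0 µg/ml (log2 fold change 1.38, adjusted p = 1.74e-05). The urokinase receptor PLAUR (0.77), the matricellular protein CCN2 (0.73) and TFPI, an inhibitor of coagulation (0.31, chosen after its value was seen), rose as well. The protease PLAU, or urokinase, fell (-0.36, adjusted p = 0.00139), and THBS1 fell to 129 ± 10.3 FPKM, against 149 ± 3.1 (-0.20, adjusted p = 0.0499), next to the threshold.

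Among Wnt genes around LRP5, 3 of 21 rose and 4 fell. DKK1, a secreted inhibitor that binds LRP5, rose to 235 ± 5.6 FPKM at 100 µg/ml, against 181 ± 3.9 at 0 µg/ml (log2 fold change 0.38, adjusted p = 1.47e-07). The ligand WNT5A (0.26) and the ubiquitin ligase ZNRF3 (0.25), which removes Frizzled receptors from the surface, rose. The ligand WNT7B fell to 0.377 ± 0.026 FPKM, against 1.36 ± 0.056 (-1.08, adjusted p = 5.39e-08), and the receptor FZD7 (-0.30), the Wnt deacylase NOTUM (-0.67) and the DKK1 receptor KREMEN2 (-0.30, chosen after its value was seen) fell too.

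Proteases that shed or process receptors had 2 of 11 up and 1 down. MMP14 (0.34, adjusted p = 0.0009) and FURIN (0.22, adjusted p = 0.00442), which cleaves the LRP1 precursor, rose, and ADAM10, a sheddase of CXCL16, fell to 8.72 ± 0.35 FPKM at 100 µg/ml, against 9.95 ± 0.37 at 0 µg/ml (-0.18, adjusted p = 0.0103). Sterol regulators had 2 of 12 up and 5 down. HMGCS1, an enzyme of cholesterol synthesis (-0.64, adjusted p = 4.13e-05), and INSIG1, which holds sterol regulatory factors in the endoplasmic reticulum (-0.72), fell, as did the factors SREBF1 (-0.41) and SREBF2 (-0.19, adjusted p = 0.0459), both chosen after their values were seen. The nuclear receptor NR1H2 (0.17) and the cholesterol exporter ABCA1 (0.23) rose.

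**Figure D4:**
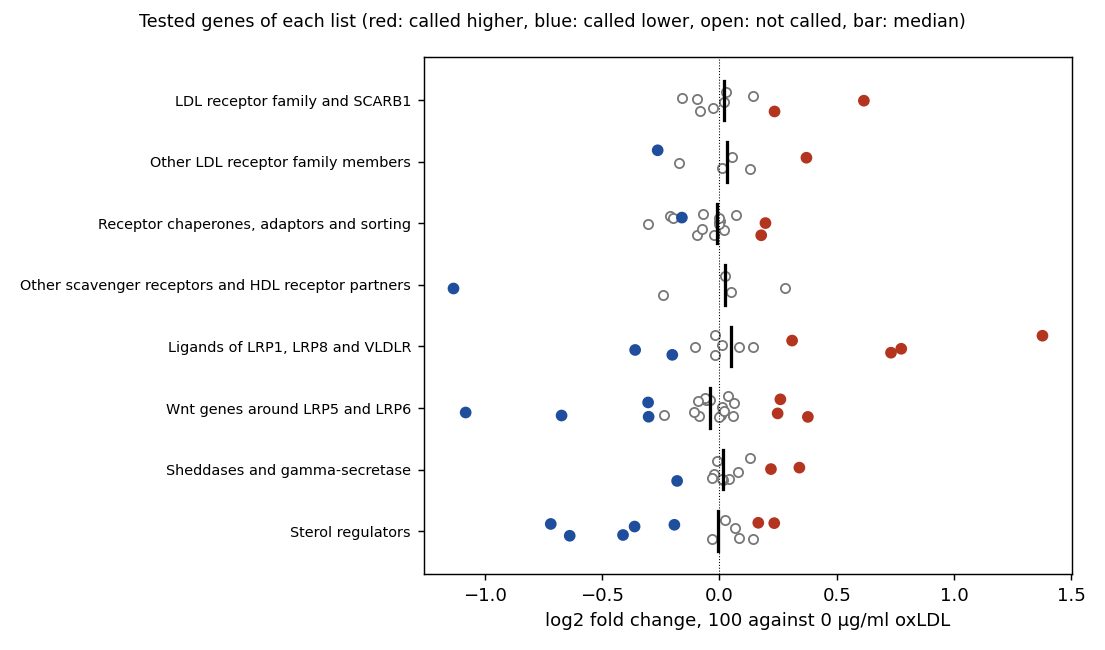
Log2 fold change at 100 against 0 µg/ml (horizontal axis) of each tested gene in the set and in 7 lists around it. Points are genes, coloured where the adjusted p is under 0.05 (red higher, blue lower), and bars are list medians. LRP8 at 0.62 and LRP10 at 0.23 are the coloured points of the top row.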

How the data were processed

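Poly-A RNA of HMC3 cells was sequenced on a NovaSeq as paired ends, per the labels' protocols. The values are FPKM as deposited by the authors, 1 column per library. The build hg38 and the tools HISAT2 2.0.5, featureCounts and DESeq2 are named, without roles, per the submitters' processing notes, and the annotation release and strand setting are not given in the sources used here. All 13992 genes gave whole reads within 0.05 reads from the steps of their FPKM. The gene lengths this implied were equal to RefSeq for 96.8% of 340 single-exon genes. The common scale of lengths and depths was set on these same 340 genes. Read intervals and depths cover counting error only.

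The 12127 genes that reached 0.5 FPKM in 3 or more of the 18 libraries were tested with limma 3.58.1 in R 4.3.3. Values entered as log2(FPKM + 0.5), where fold changes of low genes come out too small. All doses were fitted together with 12 residual degrees of freedom and a variance trend. Tests were two-sided, with p-values adjusted by Benjamini-Hochberg within each comparison. The slope used log2(dose + 1). Whole reads entered limma-voom as an alternative. The fit was tested on simulated data.

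The genes, lists and tests were chosen with earlier results of these data known. All members of the set are named. From each list up to 3 genes per direction with the smallest adjusted p at 100 µg/ml are named, and for likeness the 3 highest correlations among genes averaging 1 FPKM or more. Genes named outside this rule are marked as such. Some genes that are counted in the lists are not reported here by name. Coordinates and promoters are RefSeq, GRCh38.p14, and exon overlaps are GENCODE 29.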

Additional observations from a re-analysis of the deposited data

How the results depend on the processing

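LRP8 and LRP10 kept their calls at 100 µg/ml and over all doses in all other settings tried, with log2 fold changes at 100 µg/ml of 0.55 to 0.68 for LRP8 and 0.21 to 0.26 for LRP10. These settings were other pseudocounts, filters and scaling, no variance trend, fits of the compared doses alone, limma-voom, a replicate block and leaving out each library. Of 484 values of single genes at 50 and 100 µg/ml in these settings, 471 kept direction and side of the threshold. With only the compared doses fitted, 1 of the 9 genes was called at 50 µg/ml and 0 in the step from 10 to 50 µg/ml, and all tested genes had 86 calls in that step (317 otherwise), 1 call at 1 µg/ml (0 otherwise) and 1 at 10 µg/ml (5 otherwise). At 10 µg/ml there were 2 calls with no filter, 1 with median scaling, 1 without the variance trend and 9 with the replicate block. Without 1 library, the 9 genes had 1 to 2 calls at 50 µg/ml, 0 to 1 in the step from 10 to 50 µg/ml and 2 to 4 in the slope. All tested genes then had 0 to 6 calls at 10 µg/ml, 458 to 1027 at 50 µg/ml, 1203 to 2011 at 100 µg/ml and 79 to 727 in the step from 10 to 50 µg/ml, with 1203 without replicate 3 at 100 µg/ml. Log2 fold changes of 4 uncalled genes changed sign near 0 when 1 library was left out. At 50 µg/ml LRP1 ranged from -0.10 to 0.011, LRP5 from -0.033 to 0.122 and SCARB1 from -0.0111 to 0.0565. At 100 µg/ml SCARB1 ranged from -0.0579 to 0.0098 and CXCL16 from -0.0611 to 0.0738. Other values of uncalled genes, some of them of the same genes at the other dose, kept their sign and moved by over 1.5 times. At 100 µg/ml these were VLDLR from 0.00595 to 0.0421, LRP5 from 0.0736 to 0.229, LRP1 from -0.147 to -0.0378 and SCARA3 from -0.211 to -0.0768. At 50 µg/ml they were VLDLR from 0.0458 to 0.135 and CXCL16 from 0.109 to 0.271. The cause was not tested. Replicate numbers are shared between doses. Correlations of deviations from the dose means ranged from -0.33 to 0.24 for same-numbered libraries, with 10 of 45 pairs over 0.1. For differently numbered libraries they ranged from -0.24 to 0.25, with 15 of 90 pairs over 0.1. Such correlations cannot show whether the cultures were paired. With the replicate block the 9 genes had 2 calls at 100 µg/ml and 2 at 50 µg/ml. Averaged over the libraries of a dose, median scaling moved the log2 median of all tested genes by at most 0.012. Shifts of single libraries are not given here. At 70 to 256 reads per library, depth limits SCARA3, VLDLR and CXCL16 most.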
